A study of Mus musculus with 37 samples.

Results

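The pore-forming subunits of voltage-gated calcium channels were examined in ribosome-bound RNA of dopamine and GABA neurons of the mouse ventral midbrain. The members were chosen by gene symbol, as the 8 genes Cacna1c, Cacna1d, Cacna1a, Cacna1b, Cacna1e, Cacna1g, Cacna1h and Cacna1i, among the 57180 gene identifiers that both count tables of the series list. All 8 passed the filter on low counts in every comparison described here. In DAT;NuTRAP mice, Cre recombinase came from a knock-in at the dopamine transporter locus, Slc6a3 (DAT IRES-cre), and in VGAT;NuTRAP mice from a knock-in at the vesicular GABA transporter locus, Slc32a1 (Vgat-ires-cre). All mice were progeny of a Cre/Cre father and a homozygous NuTRAP mother, so that every animal carried the same reporter at the Rosa26 locus, in which Cre removes a stop sequence and the large ribosomal subunit protein L10a is made as a fusion with EGFP. GFP-bound ribosomes were pulled from dissected midbrain and their poly-A RNA was sequenced, with 1 library per mouse and 37 libraries in all. The 19 DAT;NuTRAP libraries came from 9 old mice (21 months, 5 males and 4 females) and 10 young mice (8 to 10.5 months, 5 of each sex). The 18 VGAT;NuTRAP libraries came from 8 old mice (21 months, with 1 female of 24 months, 3 males and 5 females) and 10 young mice (7 to 9 months, 4 males and 6 females). The tagged cells are all those that expressed the Cre gene at any time up to collection, and cell type and Cre line cannot be told apart.

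Voltage-gated calcium channels open when the membrane depolarises and let calcium into the cell, and the large pore subunit, which carries the voltage sensors and the pore, sets the type of current. Cacna1c and Cacna1d encode the L-type pores Cav1.2 and Cav1.3, Cacna1a, Cacna1b and Cacna1e the P/Q-, N- and R-type pores Cav2.1, Cav2.2 and Cav2.3, which serve transmitter release, and Cacna1g, Cacna1h and Cacna1i the low-voltage-activated T-type pores Cav3.1, Cav3.2 and Cav3.3. In midbrain dopamine neurons Cav1.3 takes part in the pacemaker cycle and its calcium entry, and T-type channels are known for rebound bursts in many GABA neurons.

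The family divides in the gene sequence itself at the selectivity filter, where each of the 4 repeats of the pore contributes 1 acidic residue that binds calcium. In the conceptual translation of the canonical transcripts, all 8 members had a glutamate codon at this place in repeats I and II, whereas in repeats III and IV 5 members had glutamate and 3 had aspartate, the 3 being the T-type genes. The coding bases around the repeat III codon are shown because they set apart the T-type members, to which both large differences between the models belong. They are read 5′ to 3′ on the coding strand from GENCODE transcripts on GRCm39, the build of the count tables, with the filter codon in capitals.
Cacna1c: gtctccaccttcGAAgggtggccagagctg
Cacna1d: gtctcaacttttGAGggctggcccgcgttg
Cacna1a: gtgtccacaggaGAGggctggccacaggtc
Cacna1b: gtgtccacgggaGAGgggtggcccatggtg
Cacna1e: gtctctacagggGAAggatggcctcaggtt
Cacna1g: ctggcctccaagGATggctgggttgacatc
Cacna1h: ctgtcatccaagGATggctgggtaaacatc
Cacna1i: ttggcctccaagGATggctgggtgaacatc
The T-type stretches lie within 1 exon each, for Cacna1g at chr11:94317282-94317311 on the minus strand, for Cacna1h at chr17:25602467-25602496 on the minus strand and for Cacna1i at chr15:80260996-80261025 on the plus strand. In the other 5 genes the stretch runs over an intron, with the capitalised codon at chr6:118633085-118633087 for Cacna1c, chr14:29822665-29822667 for Cacna1d, chr2:24541104-24541106 for Cacna1b and chr1:154320629-154320631 for Cacna1e, all on the minus strand, and at chr8:85307967-85307969 on the plus strand for Cacna1a.

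The libraries held 13841253 to 38235015 counted reads in DAT;NuTRAP and 19065284 to 35054329 in VGAT;NuTRAP, and each member had at least 158 reads in every library. The labels also give a first or a second batch, both of which occur in each model at each age (8 and 11 DAT;NuTRAP libraries, 6 and 12 VGAT;NuTRAP libraries). In DAT;NuTRAP the number of genes with any read was 19085 to 21051 in the first batch and 14323 to 18170 in the second. As a check of the labels, 10 of 10 dopamine neuron markers were called higher in DAT;NuTRAP and 9 of 10 GABA neuron markers lower. Each model also held some RNA of the other's defining genes, since Slc6a3 in VGAT;NuTRAP stood at 24.3% of its DAT;NuTRAP level (Th at 10.3%) and Slc32a1 in DAT;NuTRAP at 23.0% of its VGAT;NuTRAP level (Gad1 at 7.48%). Genes of 3 other cell types were also higher in DAT;NuTRAP, namely 8 of 8 astrocyte, 8 of 8 oligodendrocyte and 6 of 6 endothelial markers, with summed levels (CPM, counts per 1000000 reads after TMM scaling, a factor per library that aligns the bulk of the genes) of 517 to 1705 CPM for the astrocyte list in DAT;NuTRAP and 192 to 531 in VGAT;NuTRAP, 511 to 2359 and 248 to 973 for the oligodendrocyte list, and 50.3 to 233 and 24.6 to 59.4 for the endothelial list. No marker on these lists was at 0 in every library of either model. Their part in the results on the calcium channel genes was not tested. In such pooled material, fewer cells of a type and less RNA per cell cannot be told apart.

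The first question was which pore genes differ in ribosome-bound RNA between the models. RNA set aside before the pulldown was not used here, so ribosome loading and transcript amount cannot be told apart. A gene is said to be higher or lower when the Benjamini-Hochberg adjusted p over all 16898 genes tested was below 0.05 in edgeR's quasi-likelihood test with batch as a covariate, and the log2 fold change (log2FC) is followed by its standard error. Of the 8 pore genes, 2 were higher in DAT;NuTRAP, namely Cacna1a and Cacna1e, and 3 were lower, namely Cacna1c, Cacna1h and Cacna1i. Among all genes tested 30.0% were called higher and 30.4% lower (60.5% in either direction), so the share called among the pore genes was near the background. The median log2FC of the 8 was -0.01, against 0.01 over all genes. What set the members apart from each other was the size of the change, and the 2 large ones both belonged to T-type genes.

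**Figure D1:**
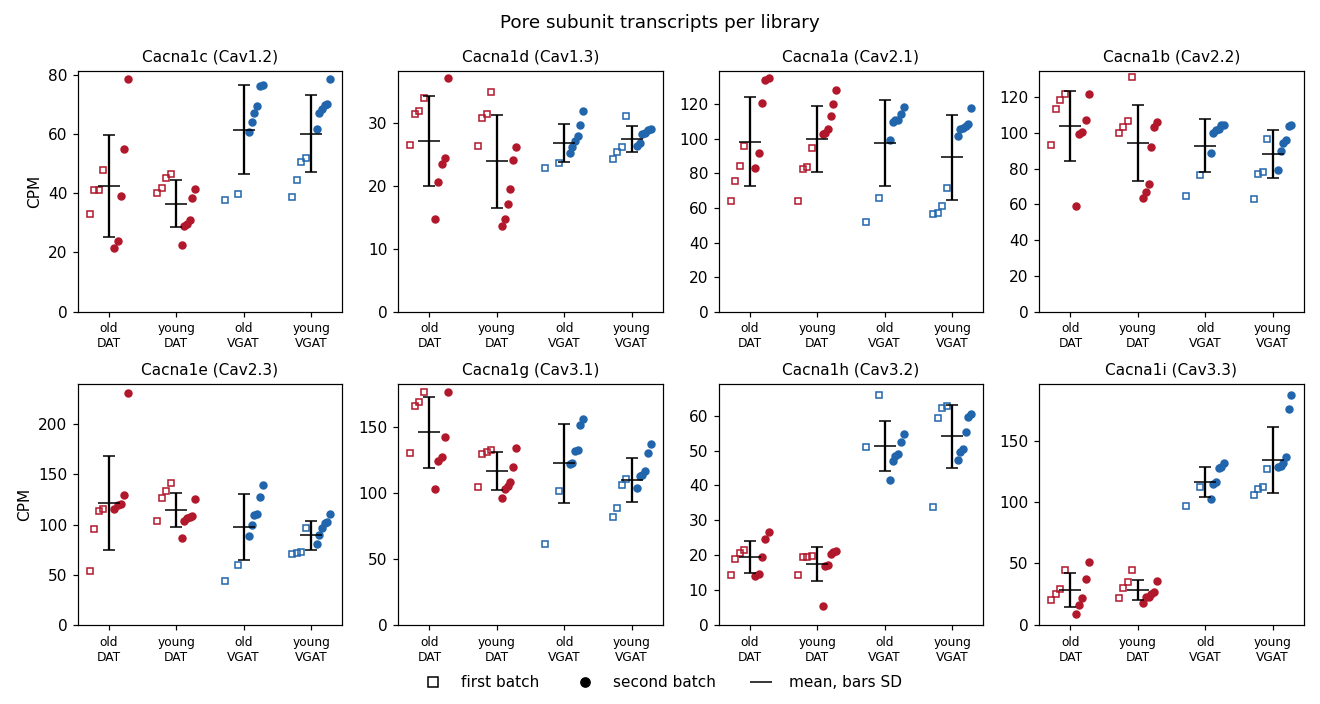
CPM of each pore gene (vertical axis, linear from 0) in every library of old DAT, young DAT, old VGAT and young VGAT mice, with open squares for the first batch, filled circles for the second, and the mean and SD as a black bar. The DAT libraries of Cacna1h and Cacna1i lie wholly below the VGAT libraries, while the other 6 genes overlap.

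Cacna1i, which encodes Cav3.3 (chr15:80171436-80282482 on GRCm39), had a lowest, median and highest level of 8.84, 25.3 and 51.3 CPM in DAT;NuTRAP, against 97.0, 127 and 187 CPM in VGAT;NuTRAP. Every DAT;NuTRAP library thus lay below every VGAT;NuTRAP library, and the means were 28.3 ± 10.8 CPM (SD, n = 19) and 126 ± 23.1 CPM (n = 18). The log2FC was -2.14 ± 0.15 (edgeR adjusted p = 6.26e-15), and 4.43% of all genes tested had a larger absolute change. The mean level in DAT;NuTRAP was 22.4% of that in VGAT;NuTRAP (23.0% for Slc32a1, 7.48% for Gad1).

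Cacna1h, which encodes Cav3.2 (chr17:25593259-25652764), had a lowest, median and highest level of 5.38, 19.5 and 26.7 CPM in DAT;NuTRAP, against 33.9, 51.7 and 66.1 CPM in VGAT;NuTRAP. Its libraries did not overlap either, with means of 18.4 ± 4.63 CPM (SD, n = 19) and 52.8 ± 8.12 CPM (n = 18) and a log2FC of -1.52 ± 0.11 (edgeR adjusted p = 3.75e-15). The level in DAT;NuTRAP was 34.8% of that in VGAT;NuTRAP. These were 2 of 8 members without overlap, both lower in DAT;NuTRAP, beside 4.99% of all genes tested that were lower without overlap (8.36% in either direction). The same 2 genes were free of overlap within the first batch and within the second batch alone, where 11.2% and 12.8% of all genes were lower without overlap (20.9% and 22.1% in either direction). Leaving out any 1 of the 37 libraries kept the log2FC of Cacna1i between -2.27 and -2.07 and that of Cacna1h between -1.59 and -1.46. The third T-type gene did not follow them. Cacna1g, the Cav3.1 pore (chr11:94299217-94365230), had a lowest, median and highest level of 96.1, 129 and 177 CPM in DAT;NuTRAP, against 61.6, 115 and 156 CPM in VGAT;NuTRAP, with broad overlap and a log2FC of 0.18 ± 0.09 that missed the threshold (edgeR adjusted p = 0.0641). It passed under DESeq2 (adjusted p = 0.0316) and with RLE factors in place of TMM (0.0416). Its call was also gained without old female DAT;NuTRAP replicate 2 or 4, old male DAT;NuTRAP replicate 4, old female VGAT;NuTRAP replicate 3 or 4, or young male VGAT;NuTRAP replicate 4 (adjusted p = 0.0225 to 0.0473).

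Among the L-type genes Cacna1c, the Cav1.2 pore also known from heart muscle (chr6:118564201-119173851), was lower in DAT;NuTRAP. Its lowest, median and highest levels were 21.5, 39.98 and 78.5 CPM in DAT;NuTRAP, against 37.8, 65.5 and 78.5 CPM in VGAT;NuTRAP, and the log2FC was -0.59 ± 0.13 (edgeR adjusted p = 0.000174). The ranges overlapped, and 1 of 19 DAT;NuTRAP libraries exceeded the VGAT;NuTRAP median, old male replicate 5. Without that library the log2FC was -0.71. Cacna1d, the Cav1.3 pore (chr14:29761896-30213412), had a lowest, median and highest level of 13.6, 26.2 and 37.1 CPM in DAT;NuTRAP, against 22.9, 27.0 and 31.9 CPM in VGAT;NuTRAP, so that the VGAT;NuTRAP range lay within that of DAT;NuTRAP. Its log2FC of -0.14 ± 0.10 did not pass (edgeR adjusted p = 0.23, 95% interval -0.34 to 0.06), although it did without old male DAT;NuTRAP replicate 5 (-0.22, adjusted p = 0.0494). The spread of Cacna1d was wider in DAT;NuTRAP, with an SD of 7.25 CPM against 2.45 CPM in VGAT;NuTRAP. This SD takes both batches together. They differed for Cacna1d in DAT;NuTRAP (second over first, log2FC -0.53, edgeR adjusted p = 0.000295) and were not called different in VGAT;NuTRAP (0.14, adjusted p = 0.647). Reads of Cacna1d may include some of Chdh, a gene on the opposite strand that shares 1477 exon bases with it (9.72% of its exon bases), because the strand setting of the counting is not given in the sources used here.

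All 3 Cav2 genes had overlapping ranges and differences below those of the T-type pair. Cacna1e, the R-type pore (chr1:154266477-154760247), had a lowest, median and highest level of 54.0, 116 and 231 CPM in DAT;NuTRAP, against 43.3, 96.5 and 140 CPM in VGAT;NuTRAP. It was higher in DAT;NuTRAP with a log2FC of 0.39 ± 0.12 (edgeR adjusted p = 0.00384), and 16 of 19 DAT;NuTRAP libraries exceeded the VGAT;NuTRAP median. Cacna1a, the P/Q-type pore (chr8:85065224-85367997), had 63.9, 96.0 and 135 CPM in DAT;NuTRAP, against 51.9, 106 and 119 CPM in VGAT;NuTRAP, so that its DAT;NuTRAP median was the lower one. Its log2FC with batch as a covariate was 0.18 ± 0.07 (edgeR adjusted p = 0.0199), but 0.09 without the batch term (adjusted p = 0.558). The call of Cacna1a was also lost without young female DAT;NuTRAP replicate 3 (log2FC 0.15, adjusted p = 0.0553), old male DAT;NuTRAP replicate 5 (0.14, adjusted p = 0.0888) or old male VGAT;NuTRAP replicate 1 (0.15, adjusted p = 0.0532). Cacna1b, the N-type pore (chr2:24493899-24653221), had 59.1, 103 and 131 CPM in DAT;NuTRAP, against 62.9, 95.5 and 105 CPM in VGAT;NuTRAP, and its log2FC of 0.13 ± 0.09 did not pass (edgeR adjusted p = 0.235, 95% interval -0.06 to 0.31).

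Some libraries stood out across the members. Old male DAT;NuTRAP replicate 5 was the highest DAT;NuTRAP library for 5 of 8 pore genes, and old male VGAT;NuTRAP replicate 1 was the lowest VGAT;NuTRAP library for 6 of 8. The batches also differed. In VGAT;NuTRAP, Cacna1a ran from 99.2 to 119 CPM in the second batch and from 51.9 to 71.5 CPM in the first, without overlap, and its log2FC of second over first batch was 0.85 ± 0.09 (edgeR adjusted p = 7.22e-09). Of the 8 members, 5 were higher in the second batch of VGAT;NuTRAP, beside 6.26% of all genes tested, and 0 were lower, beside 6.08% (12.3% in either direction). In DAT;NuTRAP 1 member was higher in the second batch, Cacna1a with a log2FC of 0.48 ± 0.08 (adjusted p = 4.8e-06), beside 17.3% of all genes, and 2 were lower, Cacna1b and Cacna1d, beside 21.8% (39.1% in either direction).

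**Figure D2:**
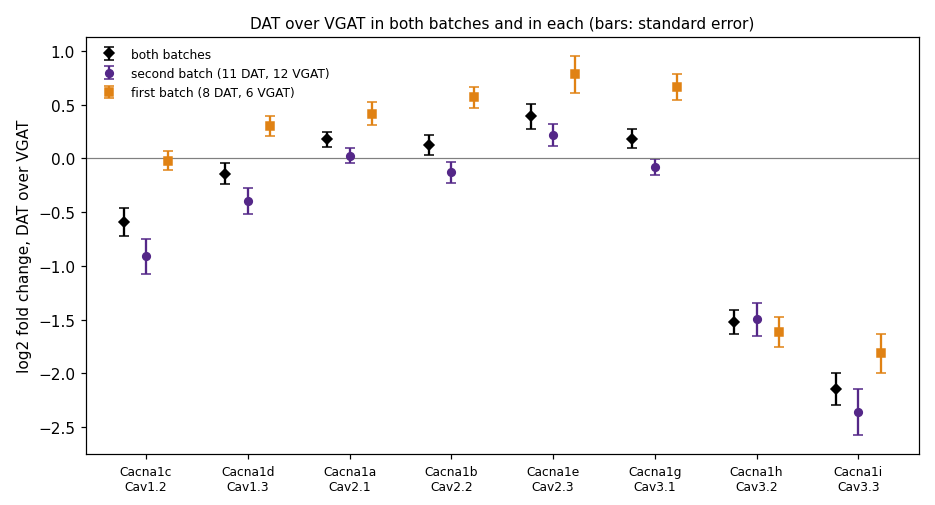
Log2 fold change of DAT over VGAT for each pore gene (vertical axis) over both batches with batch as a covariate (black), in the second batch alone (purple) and in the first batch alone (orange), with bars of 1 standard error. Cacna1i (-2.36 in the second and -1.81 in the first) and Cacna1h (-1.50 and -1.61) lie far below 0 in each batch, whereas the second-batch value lies below the first-batch value for 7 of 8 genes.

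The difference between the models was therefore tested for a difference between the batches, a test added after the within-batch values had been seen. For 5 of 8 members, Cacna1a, Cacna1b, Cacna1c, Cacna1d and Cacna1g, DAT over VGAT was lower in the second batch than in the first, beside 16.4% of all genes tested, and for 0 it was higher, beside 12.7% (29.1% in either direction). The median difference was -0.61 over the members and -0.03 over all genes. Cacna1g, for instance, had a log2FC of -0.08 in the second batch and 0.66 in the first (difference -0.67 ± 0.14, edgeR adjusted p = 0.00026). Cacna1c had -0.91 in the second batch and -0.02 in the first (difference -0.86 ± 0.23, adjusted p = 0.00401), so its lower level in DAT;NuTRAP was seen in the second batch. Cacna1d had -0.40 in the second batch (adjusted p = 0.00577) and 0.30 in the first (adjusted p = 0.012), which are opposite calls, and Cacna1b had -0.13 in the second and 0.57 in the first. Cacna1e kept its direction with 0.22 in the second batch and 0.78 in the first, but was not called in the second batch (adjusted p = 0.0781). The difference between batches did not pass for Cacna1h (-1.50 in the second batch and -1.61 in the first, difference 0.10 ± 0.23, adjusted p = 0.826) or Cacna1i (-2.36 in the second and -1.81 in the first, difference -0.56 ± 0.30, adjusted p = 0.168). Markers of other cells moved with the same contrast. Of 8 oligodendrocyte markers, 8 were called higher in DAT over VGAT in the second batch than in the first (median difference 1.65), as were 3 of 8 astrocyte markers (median 0.47), and of 10 GABA neuron markers 3 were called higher and 3 lower. Glutamate neuron markers went the other way, with 6 of 6 below 0 (median -1.36) and 1 called lower. Their summed level in DAT;NuTRAP was 48.6 to 133 CPM in the second batch and 95.3 to 261 CPM in the first. In VGAT;NuTRAP it was 56.3 to 113 CPM and 52.6 to 169 CPM. Of 10 dopamine neuron markers 1 was called higher (median 0.10). The summed oligodendrocyte level in DAT;NuTRAP was 1137 to 2359 CPM in the second batch and 511 to 777 CPM in the first, without overlap, and in VGAT;NuTRAP 248 to 973 CPM in the second batch and 342 to 678 CPM in the first. Within VGAT;NuTRAP 4 of 10 GABA neuron markers were called lower and 1 higher in the second batch than in the first (median -0.85, summed level 4177 to 5089 CPM and 4337 to 5628 CPM). No marker of these lists was at 0 in every library of a batch of either model. What the batches differ in is not given by the labels, and neither its part nor that of these cells in the pore gene values was tested.

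At each age alone, 3 members were called lower and 0 higher in old mice, beside 24.1% and 22.7% of all genes tested (46.8% in either direction). In young mice 3 were called lower and 1 higher, beside 25.4% and 24.3% (49.8% in either direction). Cacna1i had a log2FC of DAT over VGAT of -2.04 ± 0.22 in old mice (edgeR adjusted p = 1.03e-09) and -2.25 ± 0.20 in young mice (1.18e-11). Cacna1h had -1.41 ± 0.16 in old mice (2.88e-09) and -1.63 ± 0.15 in young mice (7.93e-12). Cacna1c had -0.49 ± 0.19 in old mice (0.0334) and -0.69 ± 0.17 in young mice (0.00106), and the old value lost its call without any 1 of 8 libraries, old female DAT;NuTRAP replicates 3 and 4, old male DAT;NuTRAP replicates 1 and 4 and old female VGAT;NuTRAP replicates 2 to 5 (adjusted p = 0.0504 to 0.0832). Cacna1e was called in young mice (0.38 ± 0.16, adjusted p = 0.0379) and not in old mice (0.40 ± 0.17, adjusted p = 0.054), with like values at both ages. The young call of Cacna1e was lost without any 1 of 11 libraries (adjusted p = 0.0509 to 0.0851), young female DAT;NuTRAP replicates 1 to 3, young male DAT;NuTRAP replicate 1, old male DAT;NuTRAP replicate 2, young female VGAT;NuTRAP replicates 1, 2, 4 and 6 and young male VGAT;NuTRAP replicates 1 and 3. The old value of Cacna1e passed without any 1 of 9 libraries (adjusted p = 0.0142 to 0.0496). Over all single omissions it ran from 0.21 to 0.48, with edgeR adjusted p up to 0.297. The lowest value was that without old male DAT;NuTRAP replicate 5, so the likeness of both ages depended on this library. The difference of the age effects between the models, tested as an interaction, was called for 0 of 8 members and for 0 of 16898 genes (0%), with 467 genes at an unadjusted p below 0.05 and 1 gene called by DESeq2. The interaction values ran from -0.04 (95% interval -0.30 to 0.23, Cacna1a) to 0.22 (95% interval -0.22 to 0.67, Cacna1h).

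Levels of different genes were compared per kilobase of exon, because long transcripts yield more reads. With the union of all annotated exons as length, the order in DAT;NuTRAP was Cacna1g with 12.6 ± 2.48 CPM per kb, Cacna1b with 9.89 ± 2.06, Cacna1a with 5.19 ± 1.15, Cacna1e with 4.596 ± 1.31, Cacna1i with 2.86 ± 1.09, Cacna1c with 1.76 ± 0.59, Cacna1h with 1.68 ± 0.42 and Cacna1d with 1.68 ± 0.48 (SD, n = 19). Cacna1b exceeded Cacna1a in 19 of 19 libraries, whereas Cacna1a exceeded Cacna1e in 11 of 19, Cacna1c exceeded Cacna1h in 9 and Cacna1h exceeded Cacna1d in 8, so these neighbours did not separate. In VGAT;NuTRAP the order was Cacna1i with 12.8 ± 2.34 CPM per kb, Cacna1g with 11.2 ± 2.29, Cacna1b with 9.04 ± 1.39, Cacna1a with 4.87 ± 1.28, Cacna1h with 4.82 ± 0.74, Cacna1e with 3.63 ± 0.93, Cacna1c with 2.72 ± 0.61 and Cacna1d with 1.79 ± 0.16 (n = 18). Cacna1i thus moved to the head of the list in VGAT;NuTRAP, although it exceeded Cacna1g in 13 of 18 libraries, and Cacna1a exceeded Cacna1h in 12 of 18. The order depended on the length used. With the canonical transcript, which leaves out much of the exon union of Cacna1a, Cacna1c, Cacna1d and Cacna1e, Cacna1g led in both models (15.7 ± 3.08 CPM per kb in DAT;NuTRAP and 13.9 ± 2.84 in VGAT;NuTRAP), with Cacna1i second in VGAT;NuTRAP (12.9 ± 2.36) and seventh in DAT;NuTRAP (2.89 ± 1.10). Cacna1a then stood above Cacna1b in DAT;NuTRAP (10.96 ± 2.42 and 10.1 ± 2.097 CPM per kb), exceeding it in 10 of 19 libraries, and likewise in VGAT;NuTRAP (12 of 18), so that the separation of this pair rests on the exon union.

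Summed per kilobase of exon union, T-type genes made up 42.6 ± 4.44% of the pore transcripts in DAT;NuTRAP (range 36.2 to 52.5%), against 56.8 ± 2.99% in VGAT;NuTRAP (52.7 to 63.4%). The Cav2 genes made up 49.0 ± 5.07% in DAT;NuTRAP (39.1 to 57.2%), against 34.3 ± 2.65% in VGAT;NuTRAP (28.2 to 38.2%). No test was run on these shares. Neither pair of ranges overlapped, while the L-type share, with overlapping ranges, was 8.44 ± 1.62% in DAT;NuTRAP and 8.88 ± 0.71% in VGAT;NuTRAP. Cacna1i alone held 7.06 ± 2.24% of the sum in DAT;NuTRAP and 25.3 ± 3.02% in VGAT;NuTRAP. Shares add to a whole, so a larger T-type share goes with a smaller share of the rest whatever the rest did. With canonical transcript lengths the T-type share was 35.2 ± 4.06% in DAT;NuTRAP and 46.5 ± 3.28% in VGAT;NuTRAP, and its ranges then overlapped (30.1 to 45.6% and 42.1 to 53.4%). The ranges of the Cav2 share overlapped with these lengths as well. The lack of overlap of both shares thus rests on the exon union. The size of the L-type share rests on the length as well, and it was larger with canonical lengths. Cacna1c has 22.3 kb of exon union and 6.66 kb of canonical transcript, and Cacna1d has 15.2 and 6.93 kb.

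**Figure D3:**
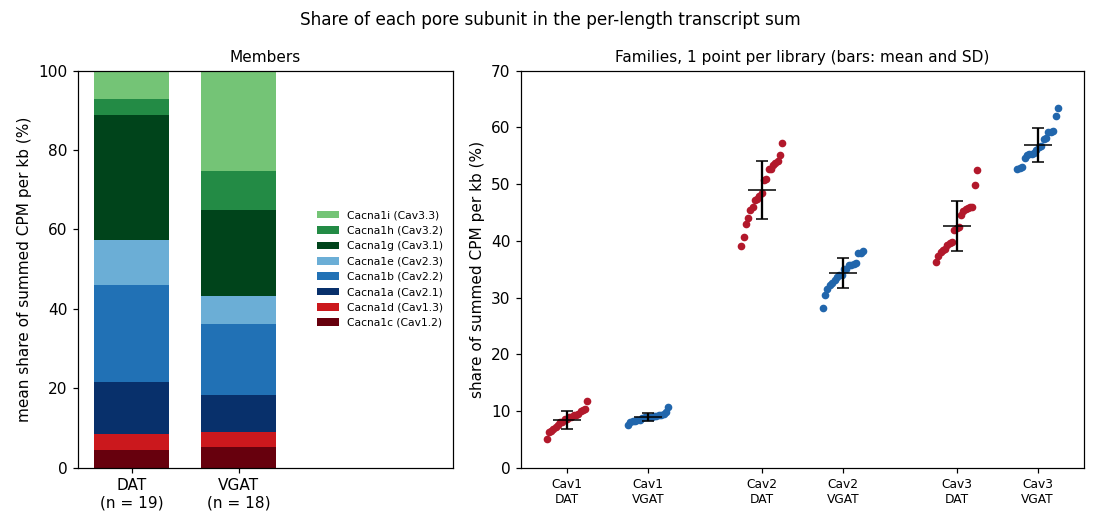
Share of each pore gene in the summed CPM per kb of exon union (percent), as stacked means for DAT and VGAT (left) and as Cav1, Cav2 and Cav3 sums with 1 point per library, mean and SD (right). The Cav3 points of DAT (36.2 to 52.5%) lie below those of VGAT (52.7 to 63.4%) and the Cav2 points above, and the light green block of Cacna1i holds 7.06% in DAT and 25.3% in VGAT.

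Ratios of a pair of pores within a library do not depend on its scaling, and 3 such ratios were compared as log2 values of counts plus 0.5. The ratio of Cacna1g to Cacna1h averaged 2.86 ± 0.57 in DAT;NuTRAP (SD, n = 19) and 1.12 ± 0.39 in VGAT;NuTRAP (n = 18), without overlap, with a difference of 1.75 (two-sided permutation test, 100000 resamples, p = 1e-05, the smallest they can give; Benjamini-Hochberg over the 9 ratio tests, 9e-05). This difference was 2.21 within the first batch and 1.50 within the second, again without overlap. It restates the lower Cacna1h counts given above and is no separate evidence. The ratio of Cacna1d to Cacna1c averaged -0.62 ± 0.38 in DAT;NuTRAP and -1.12 ± 0.30 in VGAT;NuTRAP, a difference of 0.51 with 17 of 19 DAT;NuTRAP libraries above the VGAT;NuTRAP median (permutation p = 0.00016, adjusted 0.00072). It was 0.33 within the first batch and 0.56 within the second, so that the balance of the L-type genes held its direction where Cacna1d alone did not. The ratio of Cacna1a to Cacna1b was 0.00 ± 0.49 in DAT;NuTRAP and 0.00 ± 0.27 in VGAT;NuTRAP (permutation p = 0.988). Its difference was -0.15 within the first batch (exact permutation p = 0.0706) and 0.18 within the second (permutation p = 0.0905), with opposite signs.

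The second question was whether the ribosome-bound RNA of the pore genes changes with age in either model. In DAT;NuTRAP 0 of 8 members were called in old over young mice, beside 0.00672% of all 14889 genes tested, and in VGAT;NuTRAP 0 of 8, beside 0.0256% of 15607. The median log2FC of the members was 0.14 in DAT;NuTRAP (7 of 8 above 0) and -0.03 in VGAT;NuTRAP (3 of 8 above 0), against 0.00 over all genes in both. DESeq2 called 13 genes in DAT;NuTRAP and 23 in VGAT;NuTRAP, none of them a pore gene. With an unadjusted p below 0.05 stood 786 genes in DAT;NuTRAP and 934 in VGAT;NuTRAP, of which 1 each was a pore gene.

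**Figure D4:**
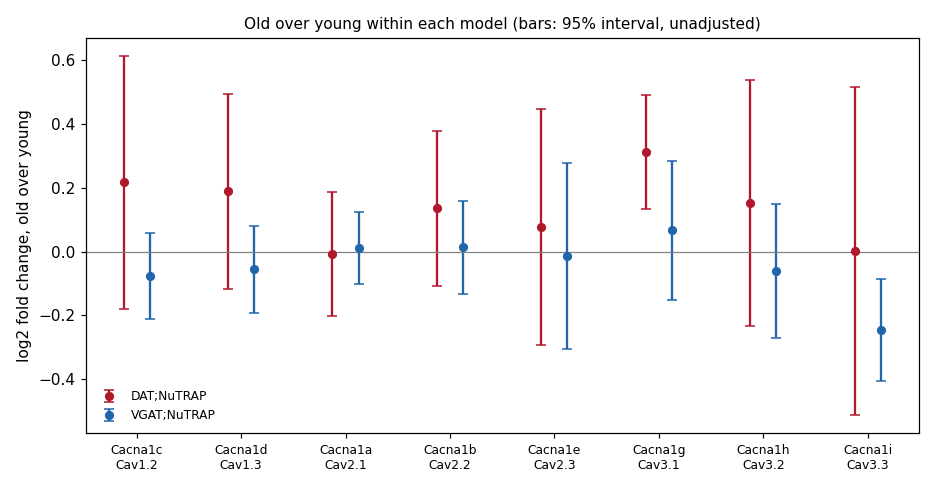
Log2 fold change of old over young for each pore gene (vertical axis) in DAT;NuTRAP (red) and VGAT;NuTRAP (blue), with unadjusted 95% intervals. The intervals leave out 0 for Cacna1g in DAT;NuTRAP (0.13 to 0.49) and Cacna1i in VGAT;NuTRAP (-0.41 to -0.08), and neither passed the adjustment over all genes.

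In DAT;NuTRAP the gene was Cacna1g, with a lowest, median and highest level of 103, 142 and 177 CPM in old mice, against 96.1, 114 and 134 CPM in young mice. The means were 146 ± 27.0 CPM (SD, n = 9) and 116 ± 14.4 CPM (n = 10), and 8 of 9 old libraries lay above the young median, though the ranges overlapped. The log2FC was 0.31 ± 0.09 (edgeR unadjusted p = 0.0013, adjusted p = 0.607). It stayed between 0.25 and 0.36 when any 1 library was left out, with adjusted p from 0.41 to 0.999. Its share of the summed pore CPM per kb was 33.2 ± 4.82% in old and 29.6 ± 3.15% in young DAT;NuTRAP mice.

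In VGAT;NuTRAP the gene was Cacna1i, with 97.0, 115 and 132 CPM in old mice, against 106, 129 and 187 CPM in young mice (lowest, median and highest). The means were 116 ± 12.5 CPM (SD, n = 8) and 134 ± 26.8 CPM (n = 10), and 1 of 8 old libraries lay above the young median. The log2FC was -0.25 ± 0.08 (edgeR unadjusted p = 0.0045, adjusted p = 0.645), between -0.29 and -0.19 with any 1 library left out. The highest young values, 187 and 175 CPM, were those of female replicate 6 and male replicate 4, both of the second batch.

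The remaining age values were small beside their intervals. Cacna1d, the L-type pore linked to pacemaking, had 27.2 ± 7.11 CPM in old and 23.9 ± 7.37 CPM in young DAT;NuTRAP mice (log2FC 0.19, 95% interval -0.12 to 0.49). Cacna1c had 42.3 ± 17.2 CPM in old and 36.5 ± 7.90 CPM in young DAT;NuTRAP mice (0.22, 95% interval -0.18 to 0.61). Cacna1i, which had its low level in DAT;NuTRAP, was 28.3 ± 13.8 CPM in old and 28.2 ± 8.03 CPM in young DAT;NuTRAP mice (0.00, 95% interval -0.51 to 0.52). The intervals were narrower in VGAT;NuTRAP, for example -0.10 to 0.12 for Cacna1a (97.7 ± 24.9 CPM in old and 89.3 ± 24.6 CPM in young mice) and -0.13 to 0.16 for Cacna1b (92.9 ± 14.9 CPM and 88.4 ± 13.5 CPM). Markers of several other cell types lay mostly above 0 in old over young beside these values, with none called. In DAT;NuTRAP these were 8 of 8 astrocyte (median log2FC 0.26), 8 of 8 oligodendrocyte (0.34), 6 of 6 endothelial (0.42) and 7 of 8 microglia markers (0.82), with summed levels of 529 to 1705 CPM in old and 517 to 1269 CPM in young mice for astrocytes, 603 to 2359 CPM and 511 to 2241 CPM for oligodendrocytes, 50.4 to 233 CPM and 50.3 to 209 CPM for endothelium and 18.05 to 99.9 CPM and 13.4 to 45.4 CPM for microglia. In VGAT;NuTRAP these were 7 of 8 astrocyte (0.29), 7 of 8 oligodendrocyte (0.27), 4 of 4 serotonin neuron (0.92) and 9 of 10 dopamine neuron markers (0.19), with summed levels of 298 to 531 CPM in old and 192 to 394 CPM in young mice for astrocytes and 2030 to 2994 CPM and 967 to 3807 CPM for dopamine neurons. The summed oligodendrocyte level there was 248 to 973 CPM in old and 273 to 489 CPM in young mice, with medians of 356 and 377 CPM. Not all lists rose. In DAT;NuTRAP 3 of 4 glutamate neuron (-0.35), 3 of 3 serotonin neuron (-0.28) and 7 of 10 GABA neuron markers tested (-0.06) lay below 0. In VGAT;NuTRAP 3 of 6 glutamate neuron markers did (-0.22). The part of these cells in the pore gene values was not tested.

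None of the 6 ratio tests of age passed. The ratio of Cacna1d to Cacna1c differed by 0.06 between old and young DAT;NuTRAP mice (exact permutation test, two-sided, p = 0.739) and by -0.06 in VGAT;NuTRAP (p = 0.681), and all 6 adjusted values were 0.832. Within the second batch alone the ratio of Cacna1g to Cacna1h was 0.33 higher in old VGAT;NuTRAP mice, with 6 of 6 old libraries above the young median (exact permutation p = 0.0152, adjusted 0.0455), while within the first batch, with 2 old libraries, it was 0.41 lower (p = 0.267).

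The age effect was also compared between males and females, as an interaction within each model. It was called for 0 of 8 members in DAT;NuTRAP (0% of 16560 genes) and 0 of 8 in VGAT;NuTRAP (0% of 17185), with 703 and 875 genes at an unadjusted p below 0.05 and 13 and 0 genes called by DESeq2. In DAT;NuTRAP the smallest p of a member was that of Cacna1i, with a log2FC of old over young of 0.27 ± 0.24 in males and -0.59 ± 0.26 in females (difference 0.86 ± 0.35, edgeR unadjusted p = 0.022, adjusted p = 1). Cacna1g was 0.45 ± 0.12 in males (unadjusted p = 0.000845, adjusted p = 1) and 0.15 ± 0.13 in females, and the difference between the sexes did not pass (0.29 ± 0.18, adjusted p = 1). Without the filter on low counts Cacna1g in males passed (0.45, edgeR adjusted p = 0.0331), while it did not under DESeq2 (adjusted p = 0.4) or under the 4 other settings run (adjusted p = 1 in each), nor with any 1 library left out (adjusted p = 0.0835 to 1). With the filter, within 1 sex alone 0 of 8 members were called in any of the 4 comparisons, beside 0% of all genes in males and 0.00604% in females of DAT;NuTRAP and 0.0407% in males and 0.0116% in females of VGAT;NuTRAP. In VGAT;NuTRAP the smallest p was that of Cacna1c, with -0.26 in males and 0.04 in females (difference -0.30 ± 0.13, unadjusted p = 0.0239, adjusted p = 0.967).

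The pores work in complexes, and the genes of the auxiliary subunits were tested in the same fit, in which 30.0% of all genes were called higher and 30.4% lower in DAT;NuTRAP (60.5% in either direction). Of 4 beta subunit genes, which bring the Cav1 and Cav2 pores to the membrane, 2 were higher in DAT;NuTRAP (Cacnb3, log2FC 1.04, edgeR adjusted p = 3.22e-20; Cacnb1) and 2 lower (Cacnb4, -0.97, adjusted p = 4.73e-12; Cacnb2). The alpha2delta list held 5 genes, Cacna2d1 to Cacna2d4 and the alpha2delta-like gene Cachd1. Of these, 3 were higher in DAT;NuTRAP, among them Cacna2d1 (1.05, adjusted p = 2.53e-06), and 2 lower, among them Cacna2d2 (-0.84, adjusted p = 1.13e-18). Of the 8 gamma family genes, several of which encode AMPA receptor partners, 6 were tested and 3 were lower in DAT;NuTRAP (Cacng5, Cacng7 and Cacng2). Of 21 channel regulators and partners, 20 were tested, 5 were higher and 10 lower in DAT;NuTRAP, with a median log2FC of -0.49 against 0.01 over all genes, among them the adaptor Stac2 (-2.15, adjusted p = 4.12e-24), the calcium sensor Ncs1 (-0.63) and the active zone protein gene Tspoap1 (-1.03). DAT over VGAT also differed between the batches for these lists. It was called lower in the second batch than in the first for 3 of 4 beta and 4 of 5 alpha2delta list genes, and higher for 0. Of the 6 gamma genes 2 were called higher and 0 lower, and of the 20 regulators 3 higher and 7 lower. Among all genes 12.7% were called higher and 16.4% lower in this contrast (29.1% in either direction). In old over young mice 0 genes of these 4 lists were called in either model, beside 0.00672% of all genes in DAT;NuTRAP and 0.0256% in VGAT;NuTRAP. Cacna1f and Cacna1s, the pores of retina and skeletal muscle, averaged 0.28 and 0.18 CPM in DAT;NuTRAP.

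Each member was also set beside all other genes for likeness of its pattern, measured as the root mean square difference of centred log2 CPM over the 8 means of model, age and sex (37 libraries, 14383 genes compared). Nearest to Cacna1i were Chsy3 (0.14) and Slc7a14 (0.16), with log2FC of DAT over VGAT of -2.54 and -2.39, and nearest to Cacna1h were Mef2c (0.05) and Nhs (0.06), with -1.31 and -1.62. Csmd1 and Erbb4 lay nearest to Cacna1g (0.06 and 0.07), Ankrd17 and Kmt2e to Cacna1c (0.05 and 0.06), and Diaph1 and Rab11fip4 to Cacna1d (0.03 and 0.04). For the Cav2 genes they were Basp1 and Shoc1 (Cacna1a, 0.06 each), Dnajb12 and Pcdh1 (Cacna1b, 0.05 each) and Fam171a2 and Zfp628 (Cacna1e, 0.08 each). The 2 genes nearest to Cacna1i were farther from it than those of any other member were from theirs. This distance is not scaled to the size of a member's change, which was largest for Cacna1i.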

How the data were processed

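The values are whole-number counts of reads per gene, in 1 table per model, made before deposit by the authors, per the methods of the study: directional poly-A libraries were sequenced as paired reads, adaptors, poly-G and low-quality ends were trimmed, STAR 2.7.10b aligned the reads to mm39, and featureCounts counted them (version, strand setting and annotation not given in the sources used here). The later steps of the study (removal of genes of other cell types, batch adjustment) come after these tables and were not applied. Its input RNA was not used here. The 37 libraries, 1 per mouse, were grouped by the labels. Genes were filtered (filterByExpr, minimum count 10), scaled by TMM and tested with edgeR 4.0.16 in R 4.3.3 (quasi-likelihood, batch as covariate, Benjamini-Hochberg over all genes tested), all groups in 1 fit for DAT over VGAT and each model alone for age. These adjusted p-values come from fits across all genes. P-values measure the spread between mice. Ratios were compared by two-sided permutation tests (exact below 100000 regroupings). In the tests over both batches, libraries were regrouped without regard to batch. Exon lengths and coding sequences came from GENCODE vM39, which matched 56620 of 57180 identifiers. Alternatives were DESeq2 1.42.0, RLE factors, other filters, no batch term, a batch term per model, sex as covariate, each batch alone, a replicate block and each library left out. Sex as covariate was run for old over young alone. In DAT over VGAT sex entered only through the replicate block, made of age group, sex and replicate number. Known changes were recovered in data simulated from these libraries. The simulation held no batch effect and only log2 changes of 1 or 2, so it does not bear on smaller changes or on batch. Named genes are the 8 members, up to 4 genes with the smallest p per channel list, the 2 nearest genes per member and marker genes. The values of 1 gene of the regulator list are not reported here. The members and lists were chosen with earlier results of these data known, and the test between batches after its within-batch values were seen.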

Additional observations from a re-analysis of the deposited data

Results flagged for a closer look

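Among 32 sets of 1 pore gene in 1 model and age, 4 held a library far from the others by Dixon's 95% criterion, where chance flags about 1 in 20 sets (1.6 of 32). In each of the 4 the library was the lowest of its group. Cacna1b stood at 59.1 CPM in old female DAT;NuTRAP replicate 2 (second batch), with the next library at 93.5 CPM and the group median at 107 CPM. Cacna1g stood at 61.6 CPM in old male VGAT;NuTRAP replicate 1 (first batch), with the next at 101 CPM and the median at 127 CPM. Cacna1h stood at 5.38 CPM in young female DAT;NuTRAP replicate 4 (second batch), with the next at 14.3 CPM and the median at 19.5 CPM. Cacna1h also stood at 33.9 CPM in young male VGAT;NuTRAP replicate 1 (first batch), with the next at 47.3 CPM and the median at 57.3 CPM, and this lowest VGAT;NuTRAP value still lay above the highest DAT;NuTRAP value of 26.7 CPM.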

How the results depend on the processing

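In DAT over VGAT at both ages, Cacna1h and Cacna1i kept their call and direction under every alternative run, and over the 8 genes 55 of 72 values under other settings kept both, 6 lost the call, 8 gained it and 3 turned. Across old and young together, Cacna1a lost its call with no filter, no batch term, the second batch alone and the replicate block (0.18, adjusted p = 0.0719), Cacna1c in the first batch alone and Cacna1e in the second. Without the filter the median of all genes was -0.14, and with the replicate block it was -0.11. Replicate numbers were not used as pairs in the main fits. Deviations correlated above 0.1 in 3 of 16 same-numbered pairs of DAT and VGAT (r from -0.33 to 0.18). They did so in 1 of 9 pairs of old and young DAT (-0.12 to 0.15) and 3 of 8 of old and young VGAT (-0.14 to 0.40). The pairs numbered 1 of old and young VGAT stood at 0.40 in females and 0.39 in males. The cause of the changes below was not tested, and each batch alone holds fewer libraries.

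In the first batch alone, DAT over VGAT called 4651 genes in old and 5373 in young mice, the age by cell type interaction called 1, and old over young called 4 in DAT and 0 in VGAT. There the direction turned for Cacna1d in DAT over VGAT (0.30 at both ages, 0.40 old, 0.20 young), Cacna1c in old mice (0.065), the interaction of Cacna1a (0.042), Cacna1h (-0.055) and Cacna1i (-0.023), old over young in DAT for Cacna1c (-0.10), Cacna1d (-0.00060), Cacna1e (-0.42) and Cacna1i (-0.15) and in VGAT for Cacna1a (-0.066), Cacna1b (-0.16), Cacna1g (-0.25) and Cacna1h (0.10), and the old over young ratios in VGAT of Cacna1d to Cacna1c (0.056) and Cacna1g to Cacna1h (-0.41). In the second batch alone, old over young called 52 genes in VGAT, and the direction turned in DAT over VGAT for Cacna1b (-0.13 at both ages, -0.052 old, -0.20 young), Cacna1g (-0.077 at both ages, -0.035 old, -0.12 young) and the ratio of Cacna1a to Cacna1b (0.18), and in old over young for Cacna1a in DAT (0.015), Cacna1d (0.0052) and Cacna1e (0.22) in VGAT, and the ratios of Cacna1g to Cacna1h in DAT (-0.052) and of Cacna1d to Cacna1c (0.0047) and Cacna1a to Cacna1b (-0.048) in VGAT. The ratio of Cacna1g to Cacna1h in VGAT passed there (0.33).

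DESeq2 called 1 gene in the interaction, 13 and 23 in old over young in DAT and VGAT and 13 in age by sex in DAT, and Cacna1i in old over young DAT was -0.00051. No filter gave 9 calls in old over young in VGAT, 33 in age by sex in DAT and 63 in VGAT. With no batch term old over young in VGAT gave 1 call, and Cacna1d in old mice was 0.018, the interaction of Cacna1e -0.033 and old over young in VGAT 0.035 for Cacna1c and 0.13 for Cacna1e. A batch term per model gave 0.077 for Cacna1d in old mice. With sex as covariate old over young in VGAT gave 8 calls and Cacna1i in DAT -0.12. With the replicate block old over young in VGAT gave 7 calls and age by sex in VGAT 1, and the direction turned for the interaction of Cacna1e (-0.12) and Cacna1i (-0.45), old over young of Cacna1i in DAT (-0.14) and Cacna1e in VGAT (0.022), and age by sex in DAT for Cacna1d (-0.10) and Cacna1h (-0.17).

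Leaving out 1 library at a time gave 0 to 1 calls in the interaction, 0 to 2 in old over young in DAT and 2 to 7 in VGAT. It gave ranges around 0 of -0.18 to 0.038 for Cacna1d in old DAT over old VGAT, and in the interaction of -0.094 to 0.022 (Cacna1a), -0.0065 to 0.15 (Cacna1b) and -0.14 to 0.094 (Cacna1e). In old over young they were -0.047 to 0.044 (Cacna1a), -0.081 to 0.18 (Cacna1e) and -0.20 to 0.12 (Cacna1i) in DAT, and -0.015 to 0.054 (Cacna1a), -0.019 to 0.060 (Cacna1b) and -0.079 to 0.11 (Cacna1e) in VGAT. In age by sex they were -0.20 to 0.036 (Cacna1a), -0.30 to 0.45 (Cacna1c), -0.19 to 0.30 (Cacna1d), -0.043 to 0.52 (Cacna1e) and -0.0094 to 0.40 (Cacna1h) in DAT, and -0.18 to 0.026 (Cacna1d) and -0.21 to 0.18 (Cacna1h) in VGAT. The ratio of Cacna1a to Cacna1b in DAT over VGAT ran from -0.049 to 0.037, and that of Cacna1d to Cacna1c in old over young in DAT from -0.010 to 0.13.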
